A study of Homo sapiens with 6 samples.

Results

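The integrated stress response regulators described here are ATF4, ATF5, ATF3, DDIT3, TRIB3, PPP1R15A, XBP1, HERPUD1, DDIT4 and SESN1. They were taken as every probe set of the Affymetrix HG-U133A array that the platform annotation assigns to exactly 1 gene and to a gene of this set. This gave 13 of the 22283 probe sets and 10 of the 11963 genes that have a probe set of their own, with 3 probe sets for ATF5, 2 for PPP1R15A and 1 for each other gene. The rule itself uses no measured value, although the set of genes was drawn up with earlier results of these data known. The cells were HL60, an established human promyelocytic leukemia line, cultured for 5 days with tretinoin (all-trans retinoic acid, 1 μmol/l) in dimethyl sulfoxide (DMSO), or with DMSO alone. Both conditions received DMSO at a final concentration of 0.1%, so its own effect is in both. Each condition has 3 arrays, which by the study's legend were parallel hybridizations of pooled labeled product. Each condition is therefore 1 pooled preparation hybridized 3 times. Every SD, n and p-value given here describes the technical spread between hybridizations, and the spread between cultures was not measured.

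In the integrated stress response, kinases that sense amino acid lack, heme lack, viral RNA or unfolded protein in the endoplasmic reticulum (ER) phosphorylate the translation factor eIF2. General protein synthesis then slows, while the message of ATF4, whose upstream reading frames normally hold it back, is translated more. ATF4 pairs with other leucine zipper proteins and switches on genes of amino acid supply, along with ATF3, DDIT3 (CHOP), TRIB3 and PPP1R15A (GADD34). XBP1 and HERPUD1 belong to the ER branch of the unfolded protein response, and DDIT4 (REDD1) and SESN1 restrain the growth kinase complex TORC1. The arrays measure messenger RNA, so neither eIF2 phosphorylation nor the amount of ATF4 protein was measured.

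Signals are given after each array was scaled to the mean of DMSO replicate 1, with values below 20 set to 20 for means, folds and tests. On each array 54.9% to 60.1% of probe sets exceeded 20. The 3' to 5' signal ratio of ACTB, which moves with RNA degradation and labeling, stood at 1.14 to 1.17 on tretinoin arrays and 1.38 to 1.42 on DMSO arrays, and its part in the results was not tested. The ratio for GAPDH was 1.15 to 1.19 on tretinoin arrays and 1.06 to 1.17 on DMSO arrays. The marker genes matched the labels. Of 7 tested promyelocytic markers, 6 were lower in tretinoin, while all 7 tested markers of granulocytic maturation were higher. The summed signal of the 8 promyelocytic markers with a probe set, including the untested KIT, was 309 to 333 in tretinoin and 3851 to 4364 in DMSO. Of 17 marker genes of T cells, B cells, erythroid cells, fibroblasts or epithelium with a probe set of their own, 9 were tested and none was called. Among the 17, CD3G, CD79B, ALAS2, COL1A2, EPCAM and CDH1 stood at the floor of 20 on all 6 arrays, CD3E, HBB, COL1A1 and KRT18 exceeded 20 on all 6, and the other 7 exceeded it on some arrays. The 4 above the floor throughout had signals of at most 97.5 in tretinoin and 95.9 in DMSO, and their part in the results was not tested.

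Most of the regulators had less transcript after tretinoin. TRIB3, DDIT4 and the brighter ATF5 probe sets fell 4.73-fold to 9.22-fold, ATF4 fell 2.46-fold, and XBP1 and HERPUD1 fell less than 2-fold. SESN1 and the weakest ATF5 probe set were higher, and DDIT3, ATF3 and PPP1R15A were not called. A probe set was tested if it exceeded 20 on at least 3 arrays, and called at an adjusted p under 0.05 (limma, Benjamini-Hochberg over all 13374 tested) with a change of at least 1.5-fold. Of the 13 probe sets, 12 were tested, and each of these exceeded 20 on at least 2 arrays of both conditions. Lower calls were made for 7 of the 12, against 13.8% of all tested probe sets. Higher calls were made for 2 of the 12, against 13.6% of all tested. Across the array this came to 1850 lower and 1824 higher calls, and without scaling to 2312 lower and 1142 higher, where the 12 gave 7 lower and 1 higher. The tretinoin arrays all lay below the DMSO arrays for 9 of the 12, against 24.3% of all tested probe sets, and all above them for 2, against 21.7%. The median log2 fold change (tretinoin over DMSO) was -0.80 over the 12 and -0.03 over all tested probe sets. The plot of signals by array shows each value.

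**Figure D1:**
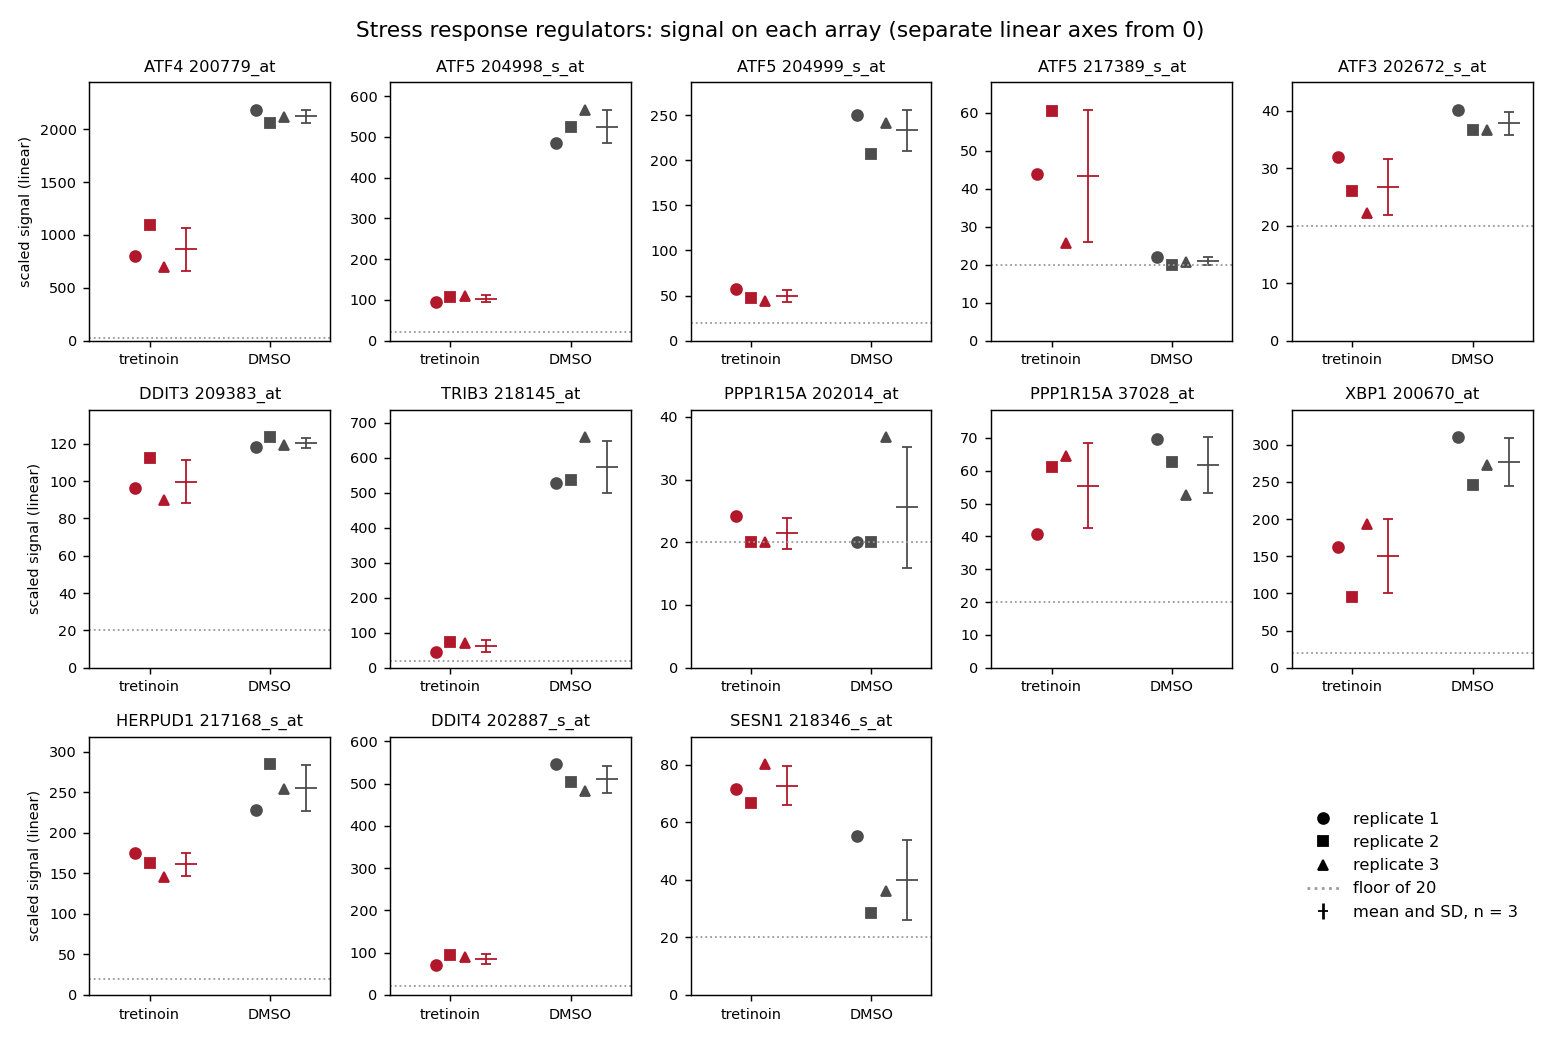
Scaled signal (linear, a separate axis from 0 for each probe set) of the 13 probe sets on the 3 tretinoin arrays (red, left) and the 3 DMSO arrays (gray, right), with mean and SD beside them and values below 20 drawn at 20. ATF4, TRIB3, DDIT4 and 2 of the 3 ATF5 probe sets are well separated, whereas both PPP1R15A probe sets overlap between conditions.

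ATF4, the central transcription factor of the response, had signals of 799, 1095 and 696 on the tretinoin arrays, against 2183, 2062 and 2119.8 on the DMSO arrays. All 3 tretinoin arrays were well below the lowest DMSO array, although tretinoin replicate 2 stood apart from the other two. Its level was 863 ± 207 in tretinoin and 2122 ± 60.2 in DMSO (mean ± SD, n = 3 arrays each), 2.46-fold lower. The log2 fold change was -1.32 (SE 0.18, limma adjusted p = 0.00182).

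ATF5 is a leucine zipper factor related to ATF4 and is translated under the same kind of control. Probe set 204998_s_at gave 93.5, 106 and 109 in tretinoin, against 485, 525 and 566 in DMSO. Probe set 204999_s_at gave 56.7, 47.5 and 43.8 in tretinoin, against 250.3, 207 and 242 in DMSO. Both separated the conditions with a wide gap. They were 5.11-fold lower (log2 fold change -2.35, SE 0.13, adjusted p = 4.98e-05) and 4.73-fold lower (log2 fold change -2.24, SE 0.15, adjusted p = 1.01e-04) by limma. The ATF5 probe set 217389_s_at went the other way at very low signal, with 44.0, 60.4 and 25.6 in tretinoin, against 22.0, 3.90 and 20.8 in DMSO. Because DMSO replicate 2 was at the floor, it was at least 2.07-fold higher (adjusted p = 0.0448). That call was lost when any array other than tretinoin replicate 3 was left out, with adjusted p between 0.0830 and 0.116, and ATF5 therefore has probe sets that disagree in direction.

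ATF3, an early stress-induced factor that often represses transcription, was close to the floor in both conditions, at 31.9, 26.0 and 22.2 in tretinoin and 40.1, 36.6 and 36.7 in DMSO. The groups did not overlap, but the 1.42-fold lower mean was under the minimum of 1.5-fold (limma log2 fold change -0.52, 95% interval -0.90 to -0.13, adjusted p = 0.0496). Without tretinoin replicate 1 it was called lower (log2 fold change -0.65, adjusted p = 0.0293). DDIT3 encodes CHOP, which promotes cell death under lasting stress. Its signals were 96.3, 112 and 90.1 in tretinoin, against 118, 124 and 119 in DMSO. The tretinoin arrays were again the lower ones, by 1.21-fold, and the change did not pass (log2 fold change -0.28, 95% interval -0.59 to 0.04, limma adjusted p = 0.162). This interval leaves room for a fall of up to 0.59 on the log2 scale and for a slight rise.

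TRIB3 is a pseudokinase that is switched on by ATF4 and CHOP and in turn restrains ATF4. Its 3 tretinoin arrays gave 43.6, 73.0 and 70.2, against 527, 536 and 659 on the DMSO arrays. No tretinoin array came near a DMSO array. The level was 62.3 ± 16.2 in tretinoin and 574 ± 73.6 in DMSO (mean ± SD, n = 3 arrays each), 9.22-fold lower. With a log2 fold change of -3.23 (SE 0.23, limma adjusted p = 1.07e-04), this was the largest change of the set, and 0.127% of all tested probe sets had a lower fitted value.

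PPP1R15A brings a phosphatase to eIF2 and so closes the response. Probe set 37028_at gave 40.7, 61.2 and 64.5 in tretinoin, against 69.6, 62.8 and 52.6 in DMSO. The conditions overlapped, and no change was called (log2 fold change -0.17, 95% interval -0.68 to 0.33, limma adjusted p = 0.602). Without tretinoin replicate 1, the lowest array, the sign changed (log2 fold change 0.037). The other PPP1R15A probe set, 202014_at, exceeded 20 on 1 tretinoin array (24.3) and 1 DMSO array (36.7) and was not tested.

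DDIT4 blocks TORC1 through the TSC complex and is induced by low oxygen, glucocorticoids and ATF4. It was at 70.7, 94.0 and 90.0 in tretinoin, against 545, 503 and 483 in DMSO, with a wide gap between the groups. The mean was 84.9 ± 12.5 in tretinoin and 510.2 ± 32.1 in DMSO (mean ± SD, n = 3 arrays each), 6.01-fold lower. The log2 fold change was -2.60 (SE 0.15, limma adjusted p = 6.05e-05), and 0.277% of tested probe sets had a lower fitted value. DDIT4 is the only member that the study picked, by fold change and signal to noise ratio on these arrays, for its ligation-based bead assay. Its direction is therefore not independent of that choice. The gene-specific ends of its probe pair, which meet at the ligation junction, are shown because they define the stretch of the DDIT4 transcript (chromosome 10) that the bead assay reads.
Upstream probe: acctggcagctgcgtttaag
Downstream probe: ccttcccccatcgtgtactg

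SESN1 encodes a sestrin, a protein that represses TORC1 when leucine is low and a known target of p53, a factor that HL60 cells lack. It was higher after tretinoin, at 71.5, 66.7 and 80.2, against 55.2, 28.5 and 36.1 in DMSO. The lowest tretinoin array was above the highest DMSO array, DMSO replicate 1. The mean was 72.8 ± 6.83 in tretinoin and 39.9 ± 13.8 in DMSO, 1.82-fold higher (log2 fold change 0.92, SE 0.25, limma adjusted p = 0.0273). The call was lost without DMSO replicate 2 (adjusted p = 0.0677), DMSO replicate 3 (0.0791), tretinoin replicate 1 (0.0691) or tretinoin replicate 3 (0.0861), and without scaling (0.0815). DDIT4 and SESN1, both inhibitors of TORC1, thus had called changes of opposite sign.

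XBP1, a leucine zipper factor whose message is spliced by the ER stress sensor IRE1, was at 162, 95.2 and 193 in tretinoin, against 310.3, 246 and 273 in DMSO. The groups did not overlap, and tretinoin replicate 2 was the lowest array here although it was the highest tretinoin array for ATF4. XBP1 was 1.84-fold lower, at 150.2 ± 50.2 in tretinoin and 276 ± 32.3 in DMSO (log2 fold change -0.93, SE 0.27, limma adjusted p = 0.0351). The call was lost without DMSO replicate 1 (adjusted p = 0.100), DMSO replicate 2 (0.0630), DMSO replicate 3 (0.0837) or tretinoin replicate 1 (0.0619). A probe set does not tell the spliced from the unspliced form.

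HERPUD1, an ER membrane protein that helps remove misfolded proteins, was at 174, 163 and 145 in tretinoin, against 228, 284 and 254 in DMSO. All tretinoin arrays were below all DMSO arrays. The mean was 161 ± 14.5 in tretinoin and 255 ± 28.2 in DMSO, 1.59-fold lower (log2 fold change -0.66, SE 0.14, limma adjusted p = 0.0117). Without DMSO replicate 2, the highest array, the log2 fold change of -0.58 was just under the 1.5-fold minimum (adjusted p = 0.0427).

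**Figure D2:**
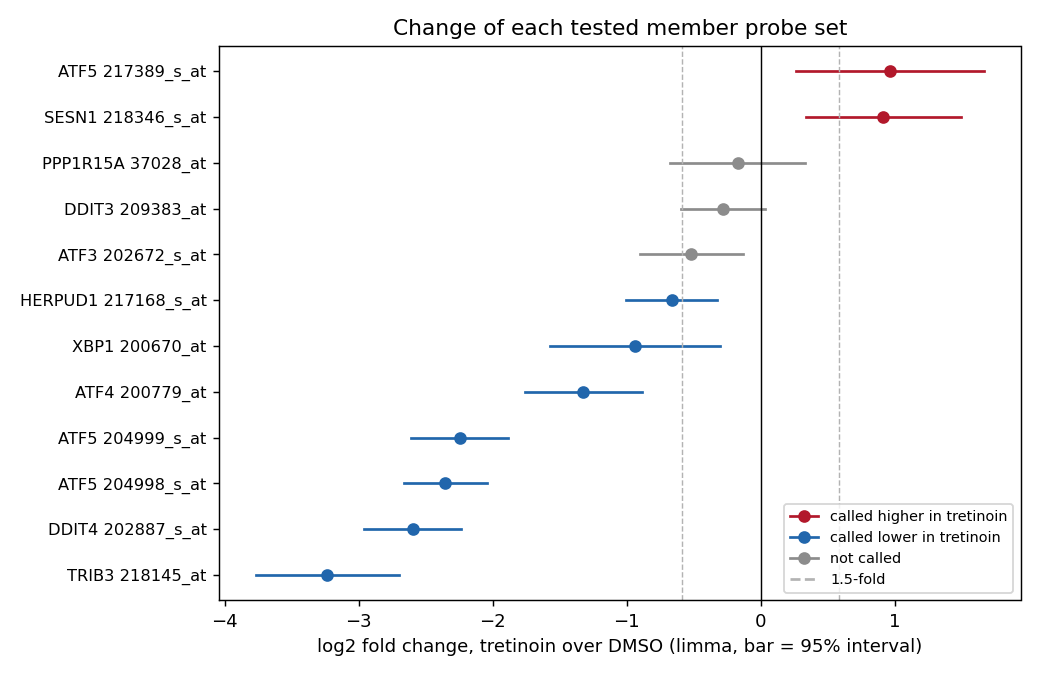
Log2 fold change (tretinoin over DMSO, horizontal axis) of the 12 tested probe sets with 95% intervals from limma, blue where called lower, red where called higher and gray where not called, with dashed lines at 1.5-fold. TRIB3, at -3.23, lies farthest to the left, and SESN1 and ATF5 217389_s_at lie to the right of 0.

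Ordered by estimate, the falls ran from TRIB3 through DDIT4, ATF5, ATF4 and XBP1 to HERPUD1. The 95% interval of TRIB3 (-3.77 to -2.70) overlapped that of DDIT4 (-2.96 to -2.24), and those of ATF4 (-1.76 to -0.89), XBP1 (-1.57 to -0.30) and HERPUD1 (-1.003 to -0.32) overlapped each other. Differences between neighbors in this order were not tested. The interval of ATF4 did not overlap those of the TRIB3, DDIT4 and lower ATF5 probe sets, all of which fell further.

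The promoter windows of the members were searched for elements through which the response is known to act. RefSeq (GRCh38.p14) gave 20 windows for the 10 genes, each from 250 bases before to 50 after a start site, and both strands were searched. The C/EBP-ATF response element core that ATF4 binds, TGATGNAA, was found in 2 of the 20, of ATF3 and HERPUD1, and in 3.62% of all 35116 windows. The ER stress element ERSE (CCAAT and CCACG with 9 free bases between them) was found in 1 of the 20, of XBP1, and in 0.0769% of all windows. ERSE-II (ATTGG and CCACG with 1 free base between them) was found in 1 of the 20, of HERPUD1, and in 0.0541%. The cAMP response element TGACGTCA was found in 1 of the 20, of PPP1R15A, and in 1.85% of all windows, and the XBP1 site TGACGTGG in no member window and in 0.729% of all. No overlap occurred between these matches. ATF4, ATF5, DDIT3, TRIB3, DDIT4 and SESN1 had no match, which says only that these letters are not in these windows. The stretches with a match are printed 5′ to 3′ on the gene's strand, with the element in capitals, to show where each lies. Whether a match goes with the size of a change was not tested.
XBP1, ERSE starting 52 bases before 1 of its annotated start sites, chr22:28800578-28800646, minus strand: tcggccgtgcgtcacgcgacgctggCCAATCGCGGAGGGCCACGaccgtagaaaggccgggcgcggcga
HERPUD1, ERSE-II starting 117 bases before the start site, chr16:56932000-56932060, plus strand: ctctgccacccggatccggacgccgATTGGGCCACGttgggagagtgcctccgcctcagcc
HERPUD1, the C/EBP-ATF core on the opposite strand, starting 176 bases before the start site, chr16:56931941-56931998, plus strand: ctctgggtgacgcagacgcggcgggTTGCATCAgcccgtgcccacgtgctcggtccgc
ATF3, the C/EBP-ATF core starting 191 bases before 1 of its annotated start sites, chr1:212565191-212565248, plus strand: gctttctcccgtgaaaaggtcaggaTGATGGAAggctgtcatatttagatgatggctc
PPP1R15A, cAMP response element starting 58 bases before the start site, chr19:48872338-48872395, plus strand: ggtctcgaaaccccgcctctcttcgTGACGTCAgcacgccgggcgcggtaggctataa

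The genes around the regulators were taken from lists, each gene by its brightest probe set annotated to it alone. The regulators themselves were in none of these lists, so ATF3, DDIT3, TRIB3 and PPP1R15A are not counted among the ATF4 targets. By gene, 14.4% of all 8151 tested genes were called lower and 13.6% higher, with a median log2 fold change of -0.04. The lists were chosen with earlier results of these data known, so their counts beside these shares are not independent of the data. Of 30 tested target genes of ATF4, 24 were called lower, 1 (CEBPB) was higher and 5 were not called, with a median log2 fold change of -1.56. The asparagine synthetase ASNS, the serine synthesis enzyme PHGDH and the amino acid transporter SLC7A5 had the lowest fitted log2 fold changes, at -4.76, -3.79 and -3.73. The floor of 20 limits this order, since tested targets below it included ASNS on 2 tretinoin arrays, SLC7A5 on 1, and BCAT1, CTH and CHAC1 on all 3. ASNS was at least 27.0-fold lower, PHGDH 13.5-fold lower and SLC7A5 at least 12.1-fold lower. CHAC1, an enzyme of glutathione breakdown widely used as a readout of ATF4 and named here after its values were seen, was below the floor of 20 on every tretinoin array, against 58.6, 76.4 and 90.7 in DMSO. It was at least 3.76-fold lower (limma adjusted p = 3.28e-04). Partners of ATF4 differed in direction. CEBPG was 2.69-fold lower, at 28.9 ± 3.79 in tretinoin and 77.9 ± 3.23 in DMSO, and CEBPB, a factor of myeloid maturation, was 3.73-fold higher, at 1963 ± 191 in tretinoin and 526 ± 5.42 in DMSO (n = 3 arrays each).

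Of 18 tested genes of the eIF2 kinases and the eIF2 cycle, 3 were lower, none was higher and 15 were not called, with a median log2 fold change of -0.26. Without DMSO replicate 2, 1 was called higher. EIF2AK1, the kinase that senses heme lack, was at 378, 370 and 384 in tretinoin, against 382.5, 364 and 383 in DMSO (log2 fold change 0.00, SE 0.11, limma adjusted p = 0.990). EIF2AK2, which senses double-stranded RNA, varied widely in both conditions, at 41.5 to 73.9 in tretinoin and 28.9 to 85.0 in DMSO, and was not called (adjusted p = 0.828). EIF2AK3 (PERK), the kinase of the ER, was near the floor, at 23.1 ± 4.65 in tretinoin and 31.4 ± 6.07 in DMSO (adjusted p = 0.144). EIF2AK4, the kinase of amino acid lack, was not analysed here, since no probe set was annotated to it alone. The 3 that fell were EIF2S1 and EIF2S2, which encode 2 of the 3 subunits of eIF2, by 1.72-fold and 1.86-fold, and GCN1, an activator of EIF2AK4, by 1.60-fold.

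In the ER branch, 11 of 25 tested target genes of ATF6 and XBP1 were lower, 1 was higher and 13 were not called, with a median log2 fold change of -0.38. The chaperone HSP90B1 was at least 3.29-fold lower and the disulfide isomerases PDIA6 and PDIA4 were 2.11-fold and 2.09-fold lower. OS9, a lectin of ER quality control, was 1.54-fold higher, a call lost without DMSO replicate 3 or tretinoin replicate 2 and under quantile normalization or no scaling, and 2 genes of the list were higher without tretinoin replicate 1. Among the 6 sensors and their proteases, ERN1, which encodes IRE1, was 1.63-fold higher, at 52.9, 47.5 and 50.3 in tretinoin, against 34.0, 28.3 and 29.9 in DMSO (limma adjusted p = 0.00596). MBTPS1, a protease that activates ATF6, was 2.39-fold lower (adjusted p = 0.0127). ATF6, ATF6B, EIF2AK3 and MBTPS2 were not called, with log2 fold changes from -0.44 to 0.45.

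Of 12 tested TORC1 regulators, the genes beside which DDIT4 and SESN1 act, 3 were lower, none was higher and 9 were not called, with a median log2 fold change of 0.15. MLST8, a subunit of the complex, was 3.52-fold lower, at 52.5 ± 3.42 in tretinoin and 185 ± 11.1 in DMSO (n = 3 arrays each). NPRL2, which restrains TORC1, and RHEB, which activates it, were 1.96-fold and 1.67-fold lower. Without DMSO replicate 1, DMSO replicate 2 or tretinoin replicate 1, only 1 of the list was lower, and without DMSO replicate 3 there were 2. Lower calls numbered 4 without scaling, under quantile normalization and with the replicate block. A single gene of the list was called higher without DMSO replicate 3, without tretinoin replicate 2, under quantile normalization and with the block. Of 11 tested target genes of p53, 1 was lower and none was higher, with a median of -0.07. SESN1, also a target of p53 and called higher, was not in this list. The death receptor TNFRSF10B was 1.68-fold lower, and no gene of that list was lower without DMSO replicate 1. In the p53 list, 3 genes were lower without scaling and 2 with the replicate block, and 1 was higher without tretinoin replicate 2 or 3. ATF3 is often counted among the immediate-early genes but was not in that list. Of its 9 tested genes, 4 were higher, none was lower and 5 were not called, with a median of -0.01. Without scaling, 1 was lower. IER3 and ZFP36 were 4.86-fold and 3.01-fold higher, and EGR1 was at least 2.83-fold higher.

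**Figure D3:**
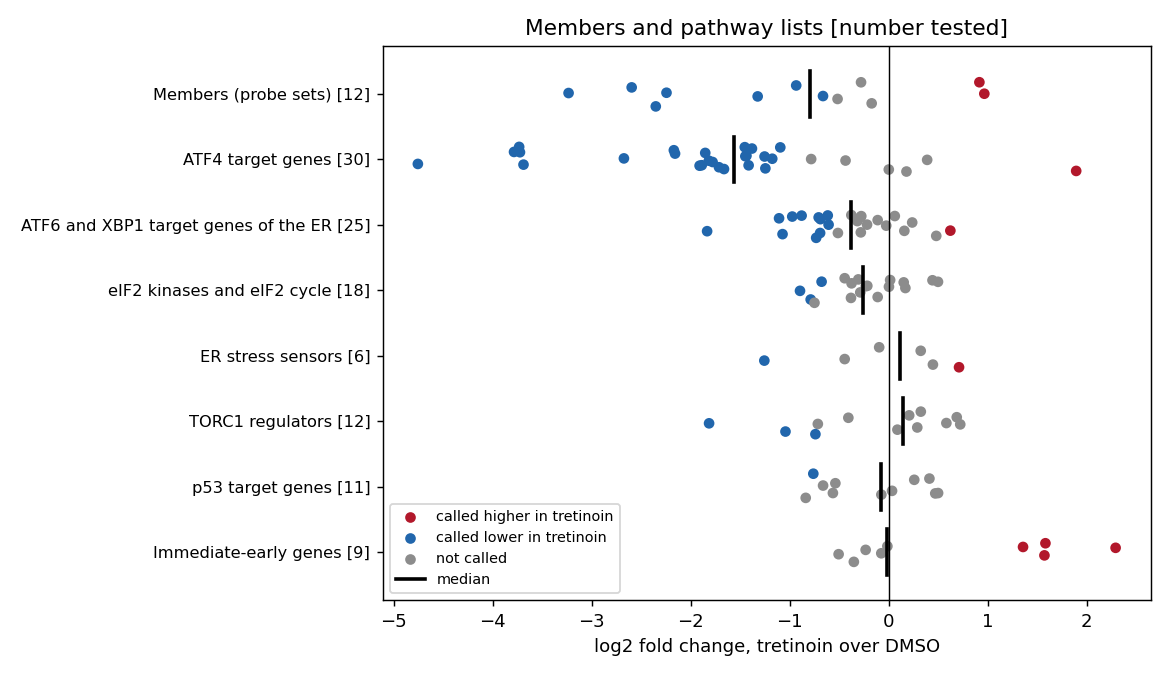
Log2 fold change (tretinoin over DMSO, horizontal axis) of the 12 tested member probe sets and of each tested gene of 7 lists, with the number tested in brackets, calls in red (higher) and blue (lower), and black bars at the medians. The median of the ATF4 target genes lies at -1.56, and that of the genes of eIF2 kinases and the eIF2 cycle at -0.26.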

How the data were processed

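Total RNA of HL60 cells was amplified, labeled and hybridized to HG-U133A arrays. The deposited values are MAS5 signal intensities on a linear scale, made by the authors before any scaling between arrays (version not given in the sources used here). Arrays were brought to the mean signal of DMSO replicate 1 (factors 0.820 to 1.36) and a floor of 20 was applied. A mean per condition was then fitted to the log2 signals by limma 3.58.1 in R 4.3.3, using lmFit and eBayes. A probe set entered the test (13374 did) when 3 or more arrays exceeded the floor. Folds are ratios of condition means, given as lower bounds where an array of the lower condition was at the floor.

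The annotation held 1 symbol for 19071 probe sets, several for 1043 and none for 2169. Symbols were updated through gene identifiers. Of the listed genes, 27 had no probe set of their own. Named genes were all members, the called genes of each list that changed most, the eIF2 kinases and the ER stress sensors, besides cell markers. CHAC1, CEBPG, BCAT1 and CTH were named after values were seen. Members and lists were chosen with earlier results of these data known. The fit was tested on simulated data. Python 3.11.15 and matplotlib 3.10.9 were used for sequences and figures.

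Alternatives were other scalings (none, median, trimmed mean, quantile), floors of 10 and 40, an offset of 16, other filters and fold minimums, a replicate block, trended robust variances, and each array left out. A planned comparison of protein sequences was not run.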

Additional observations from a re-analysis of the deposited data

How the results depend on the processing

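The lower calls of ATF4, TRIB3, DDIT4 and the ATF5 probe sets 204998_s_at and 204999_s_at held under all 17 alternatives of scaling, floor, filter, variance, block and left-out array. They also held with a minimum of 2-fold, which left 5 member probe sets lower. The number of member probe sets called lower was 5 to 8 under every alternative. The number called higher rested on SESN1 and ATF5 217389_s_at and varied more. It was 1 without scaling, with a floor of 10 or 40, with an offset of 16, with the filter on all 6 arrays and with the replicate block, 0 with no filter and with a minimum of 2-fold, and 0 to 1 with an array left out. XBP1 lost its call under 8 of 17 alternatives (adjusted p up to 0.155), SESN1 under 6 (up to 0.125) and ATF5 217389_s_at under 10 of 16. HERPUD1 lost its call under 1. PPP1R15A 37028_at changed sign without tretinoin replicate 1. Its log2 fold change was -0.29 to 0.037 with an array left out. The cause was not tested for any of these changes. Over all probe sets, higher calls were 1142 without scaling, where the median log2 fold change was -0.21 rather than -0.03, and 1012 with a minimum of 2-fold, where lower calls were 860. Deviations of tretinoin and DMSO arrays with the same replicate number had correlations of -0.03, -0.01 and 0.07, and those with different numbers -0.06 to 0.07. These values cannot show how arrays were processed. The study states no pairing by number, so the block served only as an alternative. Signals near the floor limit ATF3, PPP1R15A 202014_at and ATF5 217389_s_at.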
